A study of Mus musculus with 24 samples.

Results

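The genes examined were the ligands and receptors of axon guidance in 8 lines of mouse primary cortical astrocytes. They were chosen by gene symbol. All protein-coding semaphorins, plexins, neuropilins, ephrins, Eph receptors, Slits, Robos, and netrins were taken, together with the netrin receptors of the Unc5 group and Dcc. GENCODE M21 names 69 such genes, and 59 of them are among the 14427 genes whose counts were read. These were 20 semaphorins, 9 plexins, 2 neuropilins, 8 ephrins, 9 Eph receptors, 3 Slits, 2 Robos, 3 netrins, and 3 netrin receptors. Epha5, Epha6, Epha8, Epha10, Ephb1, Robo3, Robo4, Ntn3, Dcc, and Unc5d were not analysed here.

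The astrocytes came from the cortex of C57BL/6 pups at postnatal day 1 that carried 1 floxed and 1 deleted Trp53 allele (Trp53 f/-). Pups of each sex were pooled into 1 male and 1 female culture, so sex and culture cannot be told apart. The p53 KO lines were made with a lentivirus carrying Cre and a puromycin gene. The p53R172H, p53Y202C, and p53Y217C lines had first received a retrovirus that expresses the mutant Trp53 with eGFP from a viral promoter, had been sorted for eGFP, and then received the same Cre lentivirus. The retrovirus and the sort therefore cannot be told apart from the mutation in a comparison with p53 KO. The study names replicates of its in vitro work as separate thaws and platings of a line, so p-values carry the spread among platings of a line, not among animals. Each line had 3 libraries, cells were at passages 10 to 15, and they were grown in medium with 10% serum.

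Axon guidance genes encode cues that steer growing axons and migrating cells. Semaphorins signal through plexins, and most secreted semaphorins of class 3 first bind a neuropilin, which holds the complex together. Ephrins are tethered to the membrane and meet Eph receptor tyrosine kinases on a neighboring cell, and both partners can then signal. Slits are secreted repellents read by Robo receptors, and netrins attract through Dcc or repel through Unc5 receptors. Astrocytes use several of these systems at contacts with neurons, and the same families are studied in glioma for their part in migration and invasion.

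Total counts ranged from 52787288 to 136503809 per library, with a median of 80684346, and no gene fell under the filter of more than 1 CPM in at least 2 libraries. At this depth 3 counts correspond to 0.022 to 0.0568 CPM. Of the 59 genes, 57 had more than 3 counts in every library, and Plxnb3 and Sema5b were at or under that floor in 4 and 2 libraries. Trp53 was at 50.9 ± 2.75 CPM (SD, n = 3) in male and 48.9 ± 2.72 CPM in female p53 KO, and mean levels in the mutant lines ran from 593 CPM in female p53Y202C to 3709 CPM in female p53Y217C. Of the astrocyte markers, Gja1 and Sox9 had line means of 81 to 221 CPM and 80 to 183 CPM, whereas Gfap was at 6.93 CPM in male p53Y217C and at 0.257 CPM or less in the other lines, and Aqp4 was at 1.77 CPM in male p53Y202C, 8.06 CPM in male p53Y217C, and 0.113 CPM or less in the others. These defining astrocyte genes were thus near 0 in most lines. All 10 markers of pericytes and meningeal fibroblasts were measured, and Col1a1 had line means of 3360 to 21800 CPM and Acta2 of 2240 to 3520 CPM. Other markers of that list were low, with Rgs5 at 3.02 CPM or less in every line. Lum was at 18.2 CPM in female p53R172H and 0.675 CPM or less in the other lines, and Dcn at 105 CPM and 15.4 CPM or less. Of the listed markers of neurons, microglia, and endothelium, 4 of 9, 2 of 9, and 4 of 7 were measured. The endothelial gene Flt1 had line means of 30.4 to 222 CPM, whereas Pecam1, Cldn5, and Emcn were not measured.

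Across genes, levels were compared per kilobase of exon (RPKM computed here from the counts). In the mean of the 8 lines 42 of the 59 genes had an RPKM of 1 or more and 19 had 10 or more. Plxnb2, a class B plexin that binds class 4 semaphorins, was the highest at 99.1 RPKM, followed by Plxna1 at 60 and Unc5b at 40.6. The highest gene of the other families was Epha2 among Eph receptors (32.5 RPKM), Efnb1 among ephrins (20.5), Slit3 among Slits (19.6), Sema3c among semaphorins (18.4), Nrp1 among neuropilins (12.3), Ntn1 among netrins (9.9), and Robo1 among Robos (2.87). The lowest were Slit1, Sema4a, Plxnc1, and Unc5a, at 0.11, 0.111, 0.114, and 0.122 RPKM.

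Levels of these genes differed widely between lines. With 0.1 CPM added to each line mean, the highest line exceeded the lowest by more than 4-fold for 37 of the 59 genes (62.7%), against 21.5% of all genes. The median range was 2.27 on the log2 scale, against 1.01 for all genes. Plxnb2 was the steadiest, with a 1.3-fold range at percentile 3.47 of the ranges of all genes. Sema5b, Plxnb3, and Slit3 had the widest ranges, at 934-fold, 288-fold, and 127-fold. Male p53Y217C was the highest line for 16 genes (27.1%, against 17.8% of all genes), female p53Y202C for 12 (20.3%, against 12.9%), and male p53R172H for 9 (15.3%, against 5.3%), whereas male p53Y202C was the highest for 4 (6.78%, against 23.1%). In these bulk libraries, fewer cells that express a gene and less RNA per cell cannot be told apart.

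**Figure D1:**
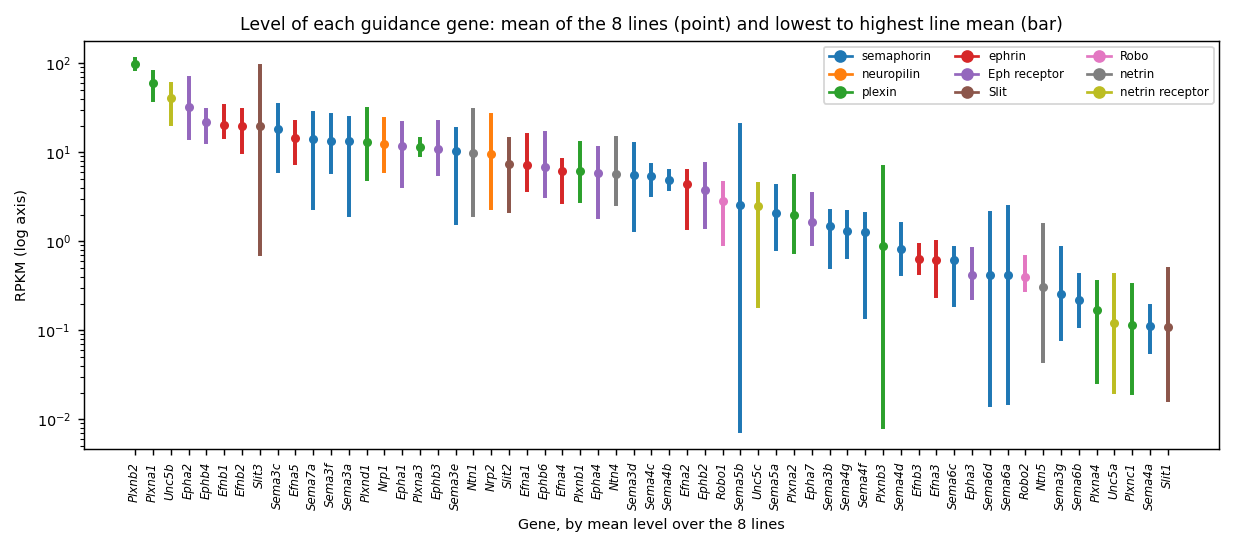
Levels of the 59 guidance genes on a log axis, in RPKM. Each point is the mean of the 8 lines and each bar runs from the lowest to the highest line mean, colored by family. Plxnb2 is highest with a short bar, and Sema5b, Plxnb3, and Slit3 have the longest bars.

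Summed levels show where the total of each family lay. The 9 plexins together had line means of 179.5 to 224 RPKM, and the 20 semaphorins 74.5 to 114. The Slits had the widest sums, from 5.82 ± 0.062 RPKM (SD, n = 3) in female p53Y217C to 104 ± 7.67 in female p53R172H. The netrins reached 44.8 ± 3.32 RPKM in male p53Y202C and were at 4.93 ± 0.23 in female p53Y202C. The 2 neuropilins ranged from 9.58 ± 0.899 RPKM in female to 37.4 ± 0.0989 in male p53Y217C. These sums are descriptions, without a test.

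**Figure D2:**
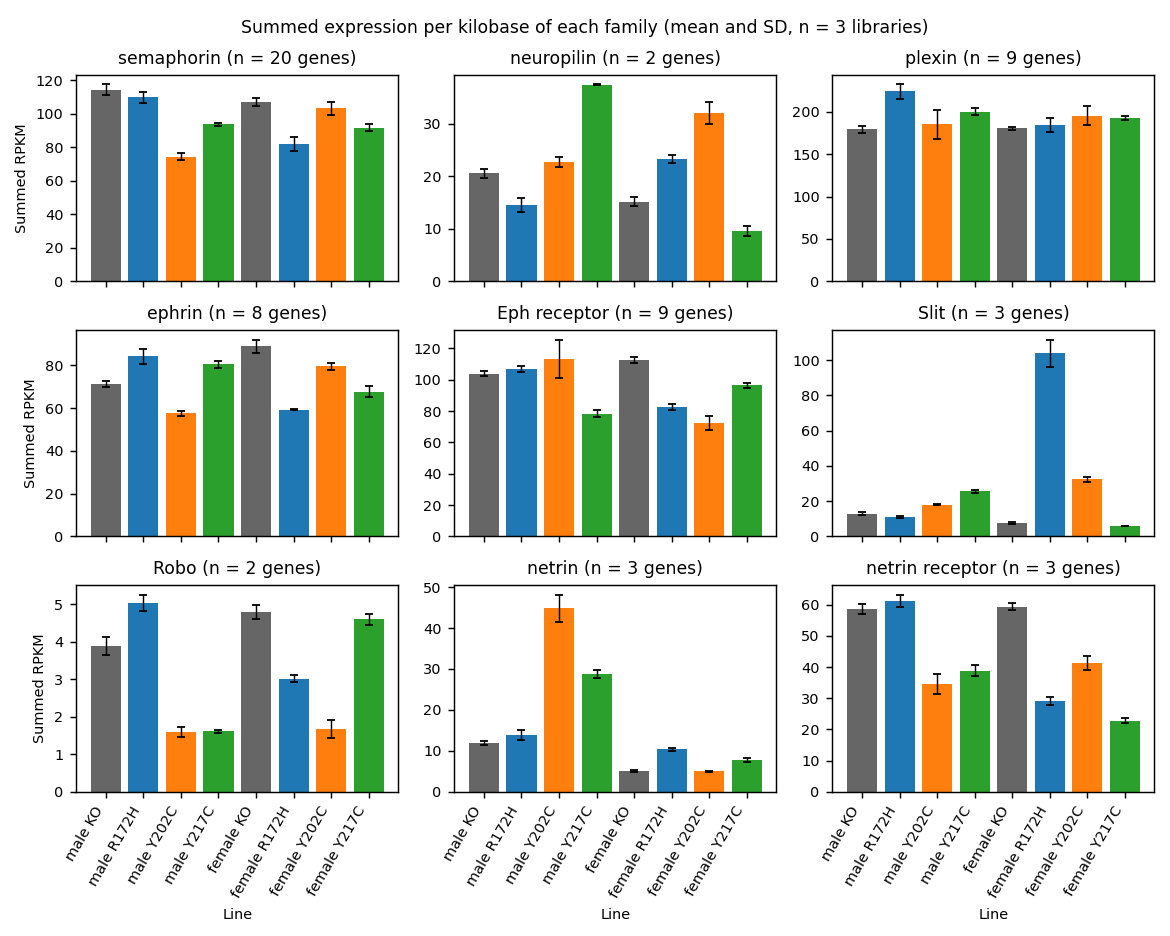
Summed RPKM of each family in each line, on linear axes that start at 0. Bars are means and error bars the SD of 3 libraries. The Slit bar of female p53R172H stands above all other Slit bars, and the netrin bars of male p53Y202C and male p53Y217C stand above those of the other lines.

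Each mutation was first compared with p53 KO of the same sex, which asks which guidance genes differed once mutant p53 was expressed. Slit3 rose 31.4-fold in female p53R172H, Sema5b rose 133-fold in male p53Y217C, and Unc5c fell 17.6-fold in male p53Y202C. Netrins passed the test as higher and Unc5 receptors as lower, and none the other way. The 3 comparisons within a sex share their p53 KO libraries. In males, 22 genes were higher and 15 lower in p53R172H, where 20.2% and 20.5% of all genes were called. In male p53Y202C 19 were higher and 30 lower (all genes, 37.6% and 35.4%), and in male p53Y217C 23 and 27 (all genes, 34.9% and 35.6%). In females, 23 were higher and 26 lower in p53R172H (all genes, 34.4% and 35.3%). Female p53Y202C had 23 higher and 25 lower (all genes, 34.3% and 34.3%), and female p53Y217C 15 and 25 (all genes, 28% and 28.7%). As shares of the 59 genes, calls in either direction made up 62.7%, 83.1%, and 84.7% in males and 83.1%, 81.4%, and 67.8% in females.

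The size of the changes is described beside that of all genes. The share that moved more than 2-fold was 16.9% in male p53R172H, where it was 5.99% of all genes, and 57.6% in male p53Y217C, where it was 20.2%. In the other comparisons it was 39% in male p53Y202C, 39% in female p53R172H, 42.4% in female p53Y202C, and 22% in female p53Y217C, against 22.1%, 17.6%, 16.2%, and 10.1% of all genes. The median log2 fold change of the 59 genes stayed between -0.23 and 0.10, and that of all genes between -0.01 and 0.01. Many calls in male p53R172H were small, and with an absolute log2 fold change above 0.5 also required, 12 genes in place of 22 were higher. Below, log2 fold changes are given ± SE with the adjusted p of edgeR's quasi-likelihood test.

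**Figure D3:**
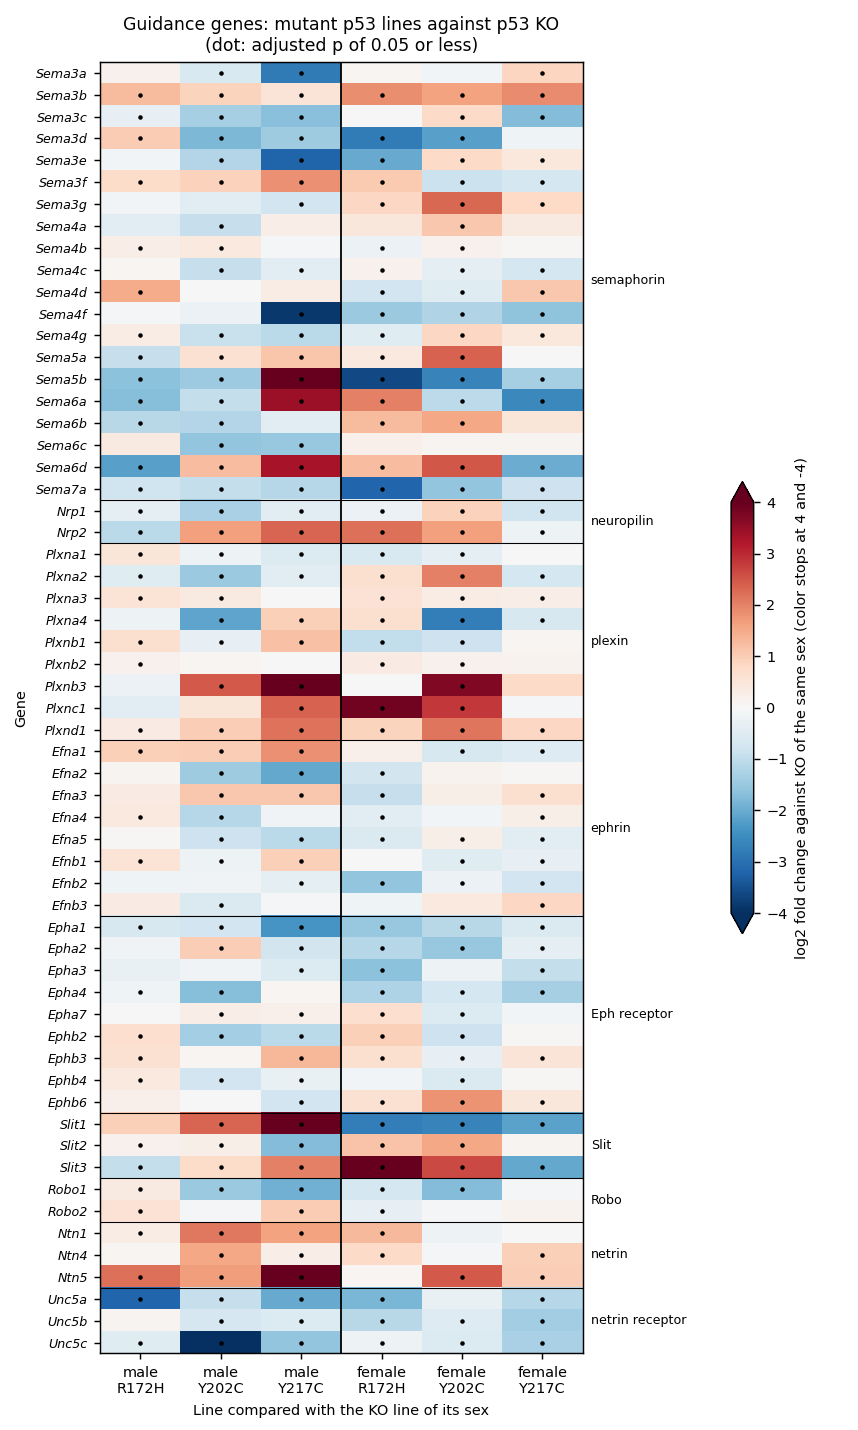
Log2 fold change of the 59 genes, ordered by family, in each mutant line against p53 KO of its sex. Red is higher and blue lower than p53 KO, colors stop at 4 and -4, and a dot marks an adjusted p of 0.05 or less. The netrin rows hold red dots and no blue dot, and the netrin receptor rows blue dots and no red dot.

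Among the 7 secreted class 3 semaphorins, male p53Y217C had 2 higher and 5 lower, and male p53Y202C 2 higher and 4 lower. Male p53R172H had 3 higher and 1 lower, female p53R172H 3 and 2, and female p53Y202C and female p53Y217C each 4 and 2. Sema3a, a repellent that signals through Nrp1, was at 208, 194, and 189.8 CPM in the 3 male p53 KO libraries and at 26.5, 30.4, and 26.1 CPM in male p53Y217C. It fell by 2.83 ± 0.09 (adjusted p = 9e-19) on the log2 scale there and rose in female p53Y217C, by 0.86 ± 0.08 (adjusted p = 3.24e-09). Sema3e, which can bind Plxnd1 without a neuropilin, was at 141, 138, and 134 CPM in male p53 KO and 13.8, 16.4, and 14.5 CPM in male p53Y217C, a log2 fold change of -3.21 ± 0.07 (adjusted p = 6.39e-21). Both genes were lower in every male p53Y217C library than in any library of the other male lines.

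Sema3e also fell in female p53R172H, where its libraries were at 22.9, 26.1, and 26.4 CPM against 106, 104, and 95.7 CPM in female p53 KO, a log2 fold change of -2.02 ± 0.07 (adjusted p = 1.31e-17). Sema3d, a cue for axons and for vessel-forming cells, was at 101, 110.4, and 107 CPM in female p53 KO. It fell by 2.79 ± 0.14 (adjusted p = 7.13e-15) in female p53R172H and rose by 1.01 ± 0.13 (adjusted p = 9.95e-07) in male p53R172H, and it fell by 1.80 ± 0.14 (adjusted p = 2.08e-11) in male p53Y202C. The male and female p53R172H libraries lay on opposite sides of their p53 KO ranges. Sema3f, which acts through Nrp2, rose in all male mutant lines, most in p53Y217C at 134, 139, and 138 CPM against 35.2, 37.4, and 42.7 CPM in p53 KO (1.83 ± 0.09). In females it rose in p53R172H (1.04 ± 0.09) and fell in p53Y202C (-0.87 ± 0.09) and p53Y217C (-0.69 ± 0.09). Sema3c, the class 3 gene with the highest level per kilobase, fell in every male mutant line and in female p53Y217C (-1.74 ± 0.10), rose in female p53Y202C (0.75 ± 0.09), and was at 158, 144, and 135 CPM in female p53R172H against 132, 159, and 147 CPM in female p53 KO (adjusted p = 0.976). Sema3g was low, and its largest change was a rise in female p53Y202C to 3.32, 4.57, and 3.59 CPM from 0.766, 0.781, and 0.802 CPM (2.29 ± 0.20). All female mutant libraries lay above the female p53 KO range of Sema3g.

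The membrane-bound semaphorins of classes 4 to 7 held the largest changes of the family. Sema5b, a transmembrane class 5 semaphorin known for keeping retinal neurites within their layer, lies at chr16:35541145-35664732 (GRCm38). It was at 153, 127, and 148 CPM in male p53Y217C and at 0.858, 1.12, and 1.18 CPM in male p53 KO, and no library of the other lines exceeded 1.18 CPM. The log2 fold change was 7.05 ± 0.21 (adjusted p = 4.41e-19), or 133-fold. Those 3 libraries stood apart from all others. In the other 5 mutant lines it passed the test as lower than p53 KO, from few reads: the female p53R172H libraries held 10, 2, and 4 counts and the female p53Y202C libraries 0, 12, and 7, against 84, 48, and 46 in female p53 KO. Its log2 fold change was -3.61 ± 0.48 (adjusted p = 4.15e-07) in female p53R172H, or -4.49 without replicate 1 of that line, and -2.68 ± 0.48 (adjusted p = 3e-05) in female p53Y202C, or -3.53 without replicate 2.

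Sema6a and Sema6d, transmembrane semaphorins that bind class A plexins, had the same highest line. Sema6a rose to 24, 19.7, and 19.7 CPM in male p53Y217C from 2.34, 1.75, and 1.82 CPM in male p53 KO (3.43 ± 0.17, adjusted p = 5.89e-15). It fell in male p53R172H (-1.70 ± 0.19, adjusted p = 1.43e-07) and in female p53Y217C, to 0.141, 0.14, and 0.118 CPM from 0.707, 0.794, and 0.908 CPM (-2.57 ± 0.27, adjusted p = 2.12e-08). Sema6d rose to 23.2, 22.1, and 20.4 CPM in male p53Y217C from 2.24, 2.14, and 2.35 CPM (3.29 ± 0.17) and in female p53Y202C to 3.43, 3.28, and 3.79 CPM from 0.717, 0.551, and 0.589 CPM (2.49 ± 0.19, adjusted p = 3.9e-11). In male p53R172H it fell by 2.16 ± 0.20 (adjusted p = 5.34e-09), and in female p53Y217C it was at 0.223, 0.0762, and 0.163 CPM (-1.99 ± 0.28). For both genes the male p53Y217C libraries lay above and the female p53Y217C libraries below the p53 KO range of their sex. Sema6b went in opposite directions in the sexes, falling in male p53R172H (-1.10 ± 0.26) and p53Y202C (-1.18 ± 0.27) and rising in female p53R172H (1.26 ± 0.25) and p53Y202C (1.53 ± 0.26). Sema6c fell in male p53Y202C (-1.57 ± 0.18) and p53Y217C (-1.51 ± 0.18) and passed the test in no other mutant line. Sema5a, the other class 5 gene, was highest in female p53Y202C at 79.5, 67.9, and 86.3 CPM and at 74.3, 76.4, and 79 CPM in male p53Y217C.

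Sema4d, a ligand of Plxnb1, was at 9.73, 13.2, and 11.9 CPM in male p53R172H against 3.43, 4.59, and 4.49 CPM in male p53 KO (1.47 ± 0.14, adjusted p = 8.82e-09) and rose in female p53Y217C (1.08 ± 0.14, adjusted p = 4.14e-07). It fell in female p53R172H (-0.76 ± 0.14) and female p53Y202C (-0.50 ± 0.14). Sema4f was at 11.2, 10.5, and 10.8 CPM in male p53 KO and 0.599, 1.12, and 0.509 CPM in male p53Y217C, where it fell by 3.86 ± 0.18 (adjusted p = 3.76e-15), and it had log2 fold changes of -1.48 ± 0.15, -1.22 ± 0.15, and -1.62 ± 0.16 in female p53R172H, p53Y202C, and p53Y217C, each past the test. Sema4g fell in male p53Y202C (-0.90 ± 0.10) and p53Y217C (-1.07 ± 0.10) and rose in those lines of females (0.83 ± 0.10 and 0.43 ± 0.10). Sema4c fell most in male p53Y202C (-0.92 ± 0.08), Sema4a rose most in female p53Y202C (1.08 ± 0.35), and Sema4b changed by 0.40 ± 0.07 at most, in male p53Y202C. Over the 6 class 4 genes, 3 were higher and 0 lower in male p53R172H, whereas 1 was higher and 4 lower in female p53R172H. Sema7a, which is held by a GPI anchor and binds Plxnc1 and integrins, was at 74, 71.6, and 66.2 CPM in female p53 KO and 7.98, 7.34, and 8.22 CPM in female p53R172H (-3.17 ± 0.11, adjusted p = 1.16e-17). In the other mutant lines it was also lower than p53 KO, at 39.6 to 58.4 CPM in males against 85.5 to 97 CPM, and at 22.7 to 43.4 CPM in female p53Y202C and p53Y217C.

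Neuropilins are the co-receptors of class 3 semaphorins and also bind VEGF. Nrp2 was at 62.9, 60.1, and 62.4 CPM in male p53 KO, and it rose in male p53Y217C to 311, 309, and 315 CPM (2.34 ± 0.06, adjusted p = 2.34e-20) and in male p53Y202C to 196, 184, and 203 CPM (1.65 ± 0.06). It fell in male p53R172H to 27.9, 29.2, and 31 CPM (-1.07 ± 0.06, adjusted p = 4.86e-13). In female p53R172H the direction was the other way, with 149, 155, and 149 CPM against 32.3, 32.4, and 33.5 CPM in female p53 KO (2.21 ± 0.06, adjusted p = 1.1e-19). Nrp2 also rose in female p53Y202C (1.63 ± 0.06) and fell in female p53Y217C (-0.21 ± 0.06), and no library of any mutant line overlapped the p53 KO range of its sex. Nrp1, with the higher mean level per kilobase of the pair, fell in every mutant line but female p53Y202C, where it rose to 246, 212, and 234 CPM from 125, 128, and 111 CPM (0.93 ± 0.08, adjusted p = 5.74e-10). Its largest fall was in male p53Y202C, to 59.6, 59.9, and 63.9 CPM from 158, 142, and 149.7 CPM (-1.29 ± 0.08, adjusted p = 9.3e-13).

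Of the 9 plexins, the counts higher and lower were 5 and 1 in male p53R172H, 3 and 4 in male p53Y202C, and 5 and 2 in male p53Y217C, and in females 6 and 2, 6 and 3, and 2 and 2. Plxnb3, a class B plexin located on the X chromosome at chrX:73757090-73772514, was at 43.2, 43.6, and 44.9 CPM in male p53Y217C, from 3466, 3370, and 3353 counts. In male p53 KO it was at 0.157, 0.143, and 0.0685 CPM, from 13, 18, and 9 counts, and the log2 fold change was 8.52 ± 0.78 (adjusted p = 8.49e-10). Male p53Y217C was thus the highest line for both Sema5b and Plxnb3. Plxnb3 was also called higher in both p53Y202C lines, and each of those calls came from a single library. The male p53Y202C libraries were at 1.53, 0.163, and 0.061 CPM, with a log2 fold change of 2.46 ± 0.95 (adjusted p = 0.0239) that was -0.05 without replicate 1 (adjusted p = 0.977) and 2.13 without male p53 KO replicate 3 (adjusted p = 0.0834). The female p53Y202C libraries were at 0.0933, 1.99, and 0.0256 CPM, with a log2 fold change of 3.69 ± 1.19 (adjusted p = 0.00845) that was 0.01 without replicate 2 (adjusted p = 0.996), 4.34 without female p53 KO replicate 1, and 4.35 without female p53Y202C replicate 3.

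Plxnc1, a receptor of Sema7a, was low in most lines and had its highest values in female p53R172H, at 3.65, 2.24, and 2.13 CPM against 0.177, 0.243, and 0.135 CPM in female p53 KO (3.86 ± 0.35, adjusted p = 6.71e-10). It also rose in female p53Y202C (2.82 ± 0.36, adjusted p = 2.35e-07) and male p53Y217C (2.37 ± 0.31). Female p53R172H was the highest line for Plxnc1 and the lowest for its ligand gene Sema7a. Plxna2 rose in female p53Y202C to 84.8, 90.6, and 105 CPM from 22.2, 24.6, and 23.1 CPM (2.005 ± 0.07, adjusted p = 7.79e-17) and fell in male p53Y202C to 13, 11.5, and 14.6 CPM from 35.1, 36.9, and 37.9 CPM (-1.5 ± 0.08, adjusted p = 1.18e-14). The p53Y202C lines of the sexes thus lay on opposite sides of p53 KO for Plxna2. Plxna4, which pairs with Nrp1 in responses to Sema3a, fell in both p53Y202C lines, to 0.591, 0.474, and 0.747 CPM in males (-2.11 ± 0.22, adjusted p = 6.1e-09) and 0.28, 0.541, and 0.294 CPM in females (-2.78 ± 0.24, adjusted p = 4.89e-10), from 1.9 to 3.08 CPM in p53 KO. Plxnb1, the receptor of Sema4d, rose in male p53Y217C (1.17 ± 0.07) and male p53R172H (0.65 ± 0.07) and fell in female p53R172H (-0.99 ± 0.07). Plxna1, the receptor with the next highest level, changed least among the class A plexins together with Plxna3, with log2 fold changes of -0.62 ± 0.06 to 0.48 ± 0.06 and 0.01 ± 0.07 to 0.58 ± 0.07. Plxnb2 ranged from 653 to 888 CPM over all 24 libraries, and its largest log2 fold change was 0.34 ± 0.06 in female p53R172H.

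**Figure D4:**
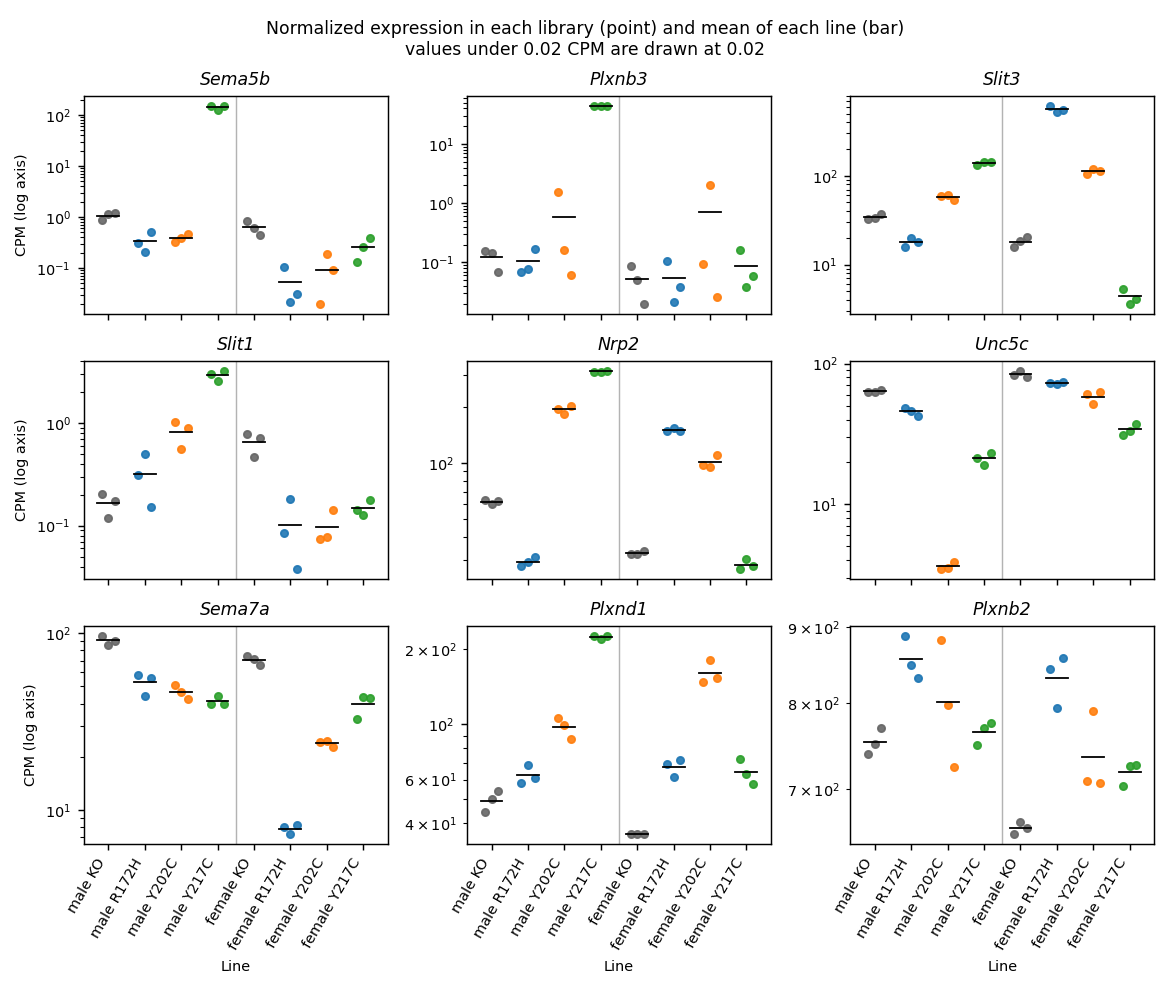
CPM of 9 guidance genes in each of the 24 libraries, on log axes that differ between genes. Points are libraries, colored by genotype, bars are line means, and the vertical line parts male from female lines. Sema5b and Plxnb3 stand far above the other lines in male p53Y217C, 1 library of each p53Y202C line stands apart for Plxnb3, and Plxnb2 spans a narrow range.

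The promoter windows of Sema5b and Plxnb3, which had the same highest line, and of Slit3, which was highest in female p53R172H, are shown to set the sequences beside the values. Windows run from 250 bases before to 50 bases after the transcription start in RefSeq on GRCm38.p6, are printed 5′ to 3′ on the strand of the gene, and mark GC boxes (GGGCGG or its complement CCGCCC) in capitals, with overlapping matches both marked.
Sema5b, chr16:35541112-35541411, plus strand: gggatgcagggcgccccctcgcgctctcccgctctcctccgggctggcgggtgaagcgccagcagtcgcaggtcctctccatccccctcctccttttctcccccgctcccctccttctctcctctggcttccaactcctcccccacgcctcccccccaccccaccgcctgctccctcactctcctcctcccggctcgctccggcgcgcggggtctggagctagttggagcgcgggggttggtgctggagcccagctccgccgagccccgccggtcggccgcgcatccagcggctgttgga
Plxnb3, chrX:73756853-73757152, plus strand: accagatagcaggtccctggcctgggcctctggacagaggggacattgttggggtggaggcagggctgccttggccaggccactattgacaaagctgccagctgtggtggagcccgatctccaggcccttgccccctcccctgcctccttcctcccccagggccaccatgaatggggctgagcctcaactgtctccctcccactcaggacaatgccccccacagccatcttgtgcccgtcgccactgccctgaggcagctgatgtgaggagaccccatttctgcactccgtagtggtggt
Slit3, chr11:35121206-35121505, plus strand: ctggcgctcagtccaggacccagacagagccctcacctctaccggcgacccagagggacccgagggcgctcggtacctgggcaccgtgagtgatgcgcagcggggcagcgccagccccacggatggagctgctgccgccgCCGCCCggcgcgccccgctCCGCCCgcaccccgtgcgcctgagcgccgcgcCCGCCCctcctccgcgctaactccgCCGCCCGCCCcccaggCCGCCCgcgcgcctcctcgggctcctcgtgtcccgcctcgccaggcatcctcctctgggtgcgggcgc
The Sema5b window has a GC content of 73% with 27 CpG and no GC box, the Plxnb3 window 63.7% with 4 CpG and no GC box, and the Slit3 window 78.3% with 41 CpG and 6 GC boxes. No CCAAT box (CCAAT or ATTGG) and no match to the p53 consensus half-site was found in these windows. Of the 67 windows of 51 of the genes, 70.1% hold a GC box, 23.9% a CCAAT box, and 5.97% a p53 half-site, against 35.7%, 37.4%, and 8.36% of all 32851 windows. The median GC content was 64.3% in the windows of the guidance genes and 52.7% in all windows. These matches describe letters in the windows only.

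Ephrins, the membrane-tethered ligands, were lower more often than higher in male p53Y202C (2 higher and 5 lower of 8) and female p53R172H (0 and 5). In male p53R172H 3 were higher and 0 lower, and male p53Y217C had 3 and 3, female p53Y202C 1 and 3, and female p53Y217C 3 and 4. Efna1, a GPI-anchored ligand of Epha2, rose in every male mutant line, most in p53Y217C at 28, 27.5, and 30 CPM against 6.92, 8.67, and 8.64 CPM in p53 KO (1.81 ± 0.11, adjusted p = 7.8e-13). In females it fell in p53Y202C (-0.63 ± 0.12) and p53Y217C (-0.50 ± 0.12). The male mutant libraries all lay above the p53 KO range. Efna2, also GPI-anchored, fell in male p53Y217C to 2.75, 3.27, and 2.99 CPM from 12.2, 11.8, and 13.2 CPM (-2.05 ± 0.10) and in male p53Y202C (-1.43 ± 0.10). Efna3 rose in male p53Y202C (1.07 ± 0.18), male p53Y217C (1.09 ± 0.18), and female p53Y217C (0.64 ± 0.19) and fell in female p53R172H (-0.94 ± 0.20). Efna4 and Efna5 had their largest changes in male p53Y202C (-1.16 ± 0.09) and male p53Y217C (-1.07 ± 0.07), and Efnb3 in female p53Y217C (0.82 ± 0.20). Efnb1, the ephrin with the highest level per kilobase, was at 113, 114, and 114 CPM in male p53Y217C against 57.9, 58.2, and 61 CPM in p53 KO (0.94 ± 0.05, adjusted p = 2.09e-14), while female p53Y202C and p53Y217C were lower than female p53 KO (-0.48 ± 0.05 and -0.32 ± 0.05). Efnb2, a ligand that marks arteries in development, fell in female p53R172H to 66.4, 75.7, and 66.2 CPM from 213, 216, and 194 CPM (-1.58 ± 0.09, adjusted p = 3.25e-13).

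Among the 9 Eph receptors, 7 were lower and 1 higher in female p53Y202C, and 6 lower and 2 higher in male p53Y217C. The counts lower and higher were 2 and 3 in male p53R172H, 4 and 2 in male p53Y202C, 4 and 4 in female p53R172H, and 4 and 2 in female p53Y217C. Epha2, the receptor with the highest level per kilobase, was at 360.3, 315, and 280.3 CPM in male p53Y202C against 185, 147, and 152 CPM in male p53 KO, a rise of 0.99 ± 0.09 (adjusted p = 6.04e-10). In female p53Y202C it was at 66.8, 73.2, and 61 CPM against 194, 195, and 179 CPM, and it fell by 1.5 ± 0.09 (adjusted p = 8.36e-13). The direction thus differed between the p53Y202C lines of the sexes, with no overlap with p53 KO in either. Epha4, which binds ephrins of both classes, fell most in male p53Y202C, to 16.4, 13.9, and 15.2 CPM from 49.4, 48.1, and 49.8 CPM (-1.69 ± 0.07, adjusted p = 3.18e-16), and in each female mutant line (-1.23 ± 0.07, -0.69 ± 0.07, and -1.32 ± 0.07 in p53R172H, p53Y202C, and p53Y217C). In male p53Y217C its libraries were at 54, 49.9, and 52 CPM, with a log2 fold change of 0.08 ± 0.07 (adjusted p = 0.275). The class B receptors Ephb2, Ephb3, and Ephb6, the last without kinase activity, passed the test as higher in female p53R172H (0.97 ± 0.07, 0.63 ± 0.07, and 0.61 ± 0.12), where 4 of the 5 class A receptors passed it as lower. Ephb3 rose most in male p53Y217C (1.34 ± 0.07), whereas Ephb2 and Ephb4 fell most in male p53Y202C (-1.36 ± 0.07 and -0.78 ± 0.07), and Epha7 ranged from -0.54 ± 0.09 in female p53Y202C to 0.67 ± 0.09 in female p53R172H. Epha3 fell in all female mutant lines but p53Y202C, most in p53R172H (-1.63 ± 0.18). Ephb6 was highest in female p53Y202C, at 54.9, 71.4, and 58.2 CPM against 16.7, 17.2, and 19 CPM (1.80 ± 0.13).

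Slit3, a secreted repellent read by Robo receptors, had the largest change of the 59 genes against p53 KO in females. It lies at chr11:35121224-35708507 and was at 619, 529, and 553 CPM in female p53R172H against 15.6, 18.3, and 20.3 CPM in female p53 KO, a log2 fold change of 4.97 ± 0.12 (adjusted p = 1.42e-20), or 31.4-fold. Female p53Y202C was next, at 104, 118, and 113 CPM (2.63 ± 0.11, adjusted p = 5.01e-16), and female p53Y217C was the lowest of the 8 lines, at 5.37, 3.62, and 4.11 CPM (-2.04 ± 0.12, adjusted p = 1.1e-12). In males, Slit3 was at 32.5, 33.7, and 37.5 CPM in p53 KO, fell in p53R172H to 15.6, 20, and 18.1 CPM (-0.95 ± 0.10), and rose in p53Y217C to 132, 142, and 142 CPM (2.0 ± 0.10). Ranges of the 3 libraries did not overlap between any mutant line and its p53 KO line. Markers of several cell types also differed between these lines. Of the 10 astrocyte markers 5 had a higher and 5 a lower mean, and their sum was at 650 to 685 CPM in female p53R172H and 391 to 416 CPM in female p53 KO. That sum followed the glutamate transporter gene Slc1a3 (means of 281 and 18.7 CPM), while Gja1 (157 and 221) and Glul (31.6 and 43.8) went the other way. Of the 10 pericyte and fibroblast markers 7 had a higher and 3 a lower mean, with sums of 39100 to 45700 and 26000 to 27800 CPM and Dcn at 105 and 2.2 CPM. In the oligodendrocyte lineage Pdgfra was at 165 and 3.09 CPM and Cspg4 at 171 and 280.0 CPM, and the summed list at 347 to 383 and 299 to 309 CPM. The summed endothelial markers were at 59.2 to 60.7 and 225 to 253 CPM, the microglial at 103 to 114 and 43.1 to 46.8 CPM, and the neuronal at means of 154 and 138 CPM. The means higher and lower numbered 3 and 2 for the oligodendrocyte lineage, 1 and 3 for endothelial, 2 and 0 for microglial, and 2 and 2 for neuronal markers. The part of these markers in the Slit3 result was not tested.

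Slit2 rose in female p53Y202C to 347, 333, and 386 CPM from 116, 127, and 119 CPM (1.56 ± 0.06) and in female p53R172H (1.13 ± 0.06), and it fell in male p53Y217C to 55, 53.6, and 56.6 CPM from 172.4, 179, and 195 CPM (-1.73 ± 0.06). Slit1 was the lowest of the family. Outside male p53Y217C its highest libraries were at 1.01 and 0.9 CPM. Slit1 thus met the filter of more than 1 CPM in at least 2 libraries only through that line. Its rise there and its p53Y217C interaction are not independent of the filter. It rose in male p53Y217C to 3, 2.54, and 3.23 CPM from 0.205, 0.119, and 0.175 CPM (4.15 ± 0.37, adjusted p = 5.66e-10) and in male p53Y202C (2.33 ± 0.38, adjusted p = 8.08e-06), and it fell in female p53Y202C, from 79, 36, and 74 counts in p53 KO to 4, 5, and 11 (-2.68 ± 0.46, adjusted p = 1.67e-05), in female p53Y217C (-2.14 ± 0.42, adjusted p = 0.000122), and most in female p53R172H (-2.75 ± 0.42, adjusted p = 3.47e-06), where the value was -3.46 without replicate 2. Slit1 thus fell in each female mutant line and rose in male p53Y202C and p53Y217C. Robo1, the Robo with the higher level, fell in both p53Y202C lines, to 18.9 to 25.3 CPM from 55 to 76.1 CPM in p53 KO (-1.48 ± 0.08 in males and -1.74 ± 0.08 in females). It fell most in male p53Y217C, to 15.9, 14.9, and 15.4 CPM (-1.93 ± 0.08, adjusted p = 4.85e-16), and in female p53Y217C its libraries were at 67.5, 68.4, and 72.3 CPM, with a log2 fold change of -0.08 ± 0.08 (adjusted p = 0.393). Robo2 rose in male p53Y217C to 11.3, 11.1, and 11.9 CPM from 5.15, 4.87, and 7 CPM (1.01 ± 0.12), the line in which Robo1 was lowest.

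Netrins and Unc5 receptors were called in opposite directions. Of the 3 netrins, 2 were higher in male p53R172H, 3 in male p53Y202C, and 3 in male p53Y217C, and in females 2, 1, and 2, and 0 were lower in any comparison. The Ntn1 call in male p53R172H, a log2 fold change of 0.295, was lost in 2 of the fits that left out 1 library. It was 0.264 without male p53 KO replicate 2 (adjusted p = 0.0543) and 0.231 without male p53R172H replicate 1 (adjusted p = 0.0728). Of the 3 Unc5 receptors 2, 3, and 3 were lower in the male lines and 3, 2, and 3 in the female lines, and 0 were higher. Across these comparisons 20.2% to 37.6% of all genes were higher and 20.5% to 35.6% lower. Netrin receptors outside the chosen genes went both ways. Neo1 was higher in male p53R172H (0.43 ± 0.05), p53Y202C (0.28 ± 0.05), and p53Y217C (0.31 ± 0.05) and in female p53R172H (0.36 ± 0.05). Neo1 was lower in female p53Y202C (-0.20 ± 0.05), and in female p53Y217C its mean was 250 CPM against 176 CPM in female p53 KO. Dscam was higher in female p53R172H (3.27 ± 0.28) and lower in male p53Y202C (-2.22 ± 0.37) and p53Y217C (-1.96 ± 0.36). Its mean was 4.02 CPM in female p53R172H and 0.531 CPM or less in the other lines, so that rise is not independent of the filter. Ntn1 was at 43.5, 41.6, and 45.2 CPM in male p53 KO, 212, 186, and 168 CPM in male p53Y202C (2.12 ± 0.09, adjusted p = 1.06e-15), and 128, 142, and 130.3 CPM in male p53Y217C (1.62 ± 0.09, adjusted p = 1.26e-13). Every male p53Y202C and p53Y217C library lay above the p53 KO range. In females it rose in p53R172H to 36.4, 34.7, and 36.5 CPM from 12.9, 17.1, and 13.8 CPM (1.30 ± 0.10), and in p53Y202C and p53Y217C its log2 fold changes of -0.21 ± 0.10 and 0.01 ± 0.10 did not pass the test. Ntn4, a netrin of basement membranes, rose in male p53Y202C to 53.8, 54.1, and 55.5 CPM from 18.8, 17.6, and 18.9 CPM (1.56 ± 0.07) and in female p53Y217C to 18.5, 20.8, and 19.8 CPM from 10.7, 9.84, and 9.92 CPM (0.96 ± 0.07, adjusted p = 1.75e-10).

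Ntn5 was low. Outside male p53Y217C its highest library was at 0.728 CPM, so Ntn5 met the filter only through that line. Its rise there and its higher level in male than in female p53Y217C are not independent of the filter. Ntn5 rose in male p53Y217C to 3.67, 3.17, and 3.42 CPM from 0.0967, 0.0954, and 0.107 CPM (5.08 ± 0.34, adjusted p = 3.11e-12), in male p53R172H (2.2 ± 0.37, adjusted p = 4.95e-05), in male p53Y202C (1.68 ± 0.39, adjusted p = 0.000491), and in female p53Y202C (2.46 ± 0.37). Its call in female p53Y217C, 0.98 ± 0.41 (adjusted p = 0.0475), rested on replicate 1, since its libraries held 35, 12, and 7 counts, and without replicate 1 the log2 fold change was 0.16 (adjusted p = 0.769). Without female p53 KO replicate 1 or 2 it was 0.81 or 0.79, with adjusted p of 0.151 and 0.144. Of the exons of Ntn5, 23.4% overlap Sec1 on the opposite strand, and since the strand of counting is not given in the sources used here, reads of the genes cannot be told apart.

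Unc5c, at chr3:141465216-141834924, encodes a receptor for netrin repulsion and had the largest fall of the 59 genes against p53 KO. Its libraries were at 63, 62.6, and 64.5 CPM in male p53 KO and 3.47, 3.52, and 3.86 CPM in male p53Y202C (-4.13 ± 0.09, adjusted p = 5.74e-21), or 17.6-fold lower. All mutant libraries lay below the Unc5c range of p53 KO of their own sex. In male p53Y202C, set against male p53 KO, the summed pericyte and fibroblast markers were at 11000 to 13300 and 29300 to 34100 CPM and the astrocyte markers at 227 to 240 and 387 to 410 CPM. The endothelial sums were 56.7 to 62.6 and 209 to 231 CPM, the microglial 20 to 22.2 and 64.4 to 80.7, the oligodendrocyte lineage 155 to 183 and 283 to 305, and the neuronal 105 to 110 and 122 to 129. The means higher and lower than male p53 KO numbered 3 and 7 for pericyte and fibroblast markers and 3 and 7 for astrocyte markers. For endothelial markers they numbered 0 and 4, microglial 0 and 2, oligodendrocyte lineage 1 and 4, and neuronal 2 and 2. The part of these markers in the fall of Unc5c was not tested. Female p53Y202C was at 60.6, 51.5, and 62.8 CPM against 83.5, 89.3, and 80.3 CPM (-0.53 ± 0.08), and both p53Y217C lines were lower by more than 1 on the log2 scale (-1.58 ± 0.08 in males and -1.31 ± 0.08 in females). Unc5b, which sets the level of the family with a mean of 40.6 RPKM, fell in female p53Y217C to 130.2, 129, and 136 CPM from 343, 348, and 337 CPM (-1.38 ± 0.06, adjusted p = 6.31e-15) and in female p53R172H (-1.12 ± 0.06). In male p53R172H it was at 379, 356, and 368 CPM against 352, 332, and 346 CPM (0.10 ± 0.06, adjusted p = 0.182). Unc5a was at 1.63, 1.86, and 1.75 CPM in male p53 KO and fell in male p53R172H to 0.252, 0.0769, and 0.242 CPM (-3.16 ± 0.33, adjusted p = 5.17e-08) and in male p53Y217C (-2.02 ± 0.30). Outside male p53 KO its highest libraries were at 1.06 and 0.885 CPM, so Unc5a met the filter only through male p53 KO. Its falls in males and its higher level in male than in female p53 KO are not independent of the filter. Its call in female p53Y217C, -1.13 ± 0.40 (adjusted p = 0.021), was lost without female p53 KO replicate 1 or 2 or female p53Y217C replicate 1 or 2, where adjusted p was 0.057 to 0.0862.

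Plxnd1 and Sema3b passed the test as higher than p53 KO in each mutant line, and Epha1, Sema7a, and Unc5c as lower. The share of all genes called in 1 direction in each mutant line was not computed. Plxnd1, the plexin that binds Sema3e, was at 44.5, 50, and 53.7 CPM in male p53 KO and at 36.4 CPM in each female p53 KO library. It rose to 226, 219, and 227 CPM in male p53Y217C (2.18 ± 0.09, adjusted p = 5.31e-16) and 148, 181, and 153 CPM in female p53Y202C (2.14 ± 0.09, adjusted p = 1.92e-15), and the other log2 fold changes were 0.34 ± 0.09 in male p53R172H, 0.98 ± 0.09 in male p53Y202C, 0.89 ± 0.09 in female p53R172H, and 0.83 ± 0.09 in female p53Y217C. Sema3b, which acts through neuropilins, was at 2.14 to 2.61 CPM in female p53 KO and 6.16 to 11.5 CPM in the female mutant libraries, with log2 fold changes of 1.89 ± 0.19 (adjusted p = 7.28e-09) in p53Y217C, 1.85 ± 0.18 in p53R172H, and 1.60 ± 0.19 in p53Y202C. In males it rose by 1.27 ± 0.18 (adjusted p = 3.83e-06) in p53R172H, by 0.90 ± 0.18 in p53Y202C, and by 0.51 ± 0.18 in p53Y217C, where the value without male p53 KO replicate 1 was 0.38 (adjusted p = 0.0825).

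Epha1, an Eph receptor whose exons overlap Zyx on the opposite strand over 6.01% of their length, was at 78.6, 87.6, and 87.9 CPM in male p53 KO and 15.1, 16.4, and 18.2 CPM in male p53Y217C (-2.36 ± 0.07, adjusted p = 1.62e-18). Female p53R172H was at 21.6, 24.4, and 21.8 CPM against 66.9, 64.4, and 63.9 CPM (-1.53 ± 0.07, adjusted p = 4.04e-15), and the other log2 fold changes were -0.64 ± 0.07 and -0.78 ± 0.07 in male p53R172H and p53Y202C and -1.11 ± 0.07 and -0.59 ± 0.07 in female p53Y202C and p53Y217C. For Sema7a they were -0.79 ± 0.10, -0.96 ± 0.10, and -1.15 ± 0.10 in male p53R172H, p53Y202C, and p53Y217C, and -1.57 ± 0.10 and -0.83 ± 0.10 in female p53Y202C and p53Y217C. For Unc5c those not yet given were -0.47 ± 0.08 in male and -0.22 ± 0.07 in female p53R172H, the latter -0.17 without female p53 KO replicate 2 (adjusted p = 0.0727). Since the comparisons of a sex share p53 KO libraries, these calls are not independent of each other.
The promoter windows of the genes called in 1 direction in each line are printed as above, with GC boxes in capitals. For Sema3b no window was used here.
Plxnd1, chr6:115994956-115995255, minus strand: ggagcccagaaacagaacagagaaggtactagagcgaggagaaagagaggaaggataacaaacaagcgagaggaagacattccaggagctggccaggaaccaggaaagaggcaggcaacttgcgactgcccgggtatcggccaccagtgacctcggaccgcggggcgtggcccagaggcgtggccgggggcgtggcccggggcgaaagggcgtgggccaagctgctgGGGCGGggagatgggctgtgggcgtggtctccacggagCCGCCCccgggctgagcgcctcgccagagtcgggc
Epha1, chr6:42373219-42373518, minus strand: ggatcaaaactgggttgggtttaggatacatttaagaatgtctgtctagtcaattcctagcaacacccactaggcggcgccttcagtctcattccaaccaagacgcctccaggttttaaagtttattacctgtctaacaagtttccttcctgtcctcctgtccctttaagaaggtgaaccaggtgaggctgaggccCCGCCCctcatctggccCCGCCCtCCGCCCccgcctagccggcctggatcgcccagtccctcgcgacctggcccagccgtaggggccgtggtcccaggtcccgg
Sema7a, chr9:57939862-57940161, plus strand: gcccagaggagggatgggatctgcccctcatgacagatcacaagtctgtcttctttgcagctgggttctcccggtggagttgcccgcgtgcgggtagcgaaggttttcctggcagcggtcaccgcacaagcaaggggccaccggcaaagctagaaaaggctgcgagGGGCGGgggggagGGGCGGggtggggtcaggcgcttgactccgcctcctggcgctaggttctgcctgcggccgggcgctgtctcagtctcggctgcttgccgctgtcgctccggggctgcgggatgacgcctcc
Unc5c, chr3:141465314-141465613, plus strand: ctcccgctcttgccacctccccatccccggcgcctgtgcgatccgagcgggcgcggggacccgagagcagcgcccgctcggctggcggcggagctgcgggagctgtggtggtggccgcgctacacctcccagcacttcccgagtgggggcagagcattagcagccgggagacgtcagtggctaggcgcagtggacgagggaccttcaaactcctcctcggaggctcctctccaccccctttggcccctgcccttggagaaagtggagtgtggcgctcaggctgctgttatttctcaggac
The Plxnd1 window holds 2 GC boxes, the Epha1 window 3, the Sema7a window 2, and the Unc5c window 0, and none holds a CCAAT box or a p53 half-site. Their GC content was 67%, 58%, 67.3%, and 68.3%.

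Male and female lines were then compared at the same genotype. In p53 KO 38 of the 59 genes differed, 22 higher in males and 16 higher in females, where 31.1% of all genes were called. With an absolute log2 fold change above 0.5 also required, 21 differed. The largest differences toward males were Unc5a (1.63, 1.86, and 1.75 against 0.324, 0.359, and 0.212 CPM, 2.56 ± 0.31, adjusted p = 5.25e-07), Sema6d (1.85 ± 0.19, adjusted p = 3.26e-08), and Ntn1, at 43.5, 41.6, and 45.2 against 12.9, 17.1, and 13.8 CPM (1.58 ± 0.10, adjusted p = 4.43e-12). Toward females they were Slit1 (0.205, 0.119, and 0.175 in males against 0.775, 0.461, and 0.715 CPM in females, -1.99 ± 0.38, adjusted p = 0.000279), Sema3d at 32.3, 41.3, and 44.6 against 101, 110.4, and 107 CPM (-1.43 ± 0.13, adjusted p = 4.03e-09), and Epha3 at 2.8, 2.85, and 3.19 against 6.08, 8.21, and 7.17 CPM (-1.27 ± 0.18, adjusted p = 5.53e-06). Of the 8 ephrins 4 were higher in females and 0 in males.

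In p53R172H 46 genes differed between male and female lines (all genes, 62%), in p53Y202C 51 (all genes, 75.3%), and in p53Y217C 53 (all genes, 68%). All 8 ephrins were higher in male than in female p53R172H, whereas in p53 KO 0 were. In p53Y217C, 7 of 9 Eph receptors were lower in the male line, 2 were higher, and all 3 netrins and both neuropilins were higher. Much of this was also seen in p53 KO, where 5 Eph receptors were lower and 2 higher in males. Both neuropilins and 2 of the 3 netrins were higher in male p53 KO, and all 3 netrins in male p53R172H.

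To ask whether the effect of a mutation differed between the male and the female culture, the log2 fold change against p53 KO in females was subtracted from that in males. This interaction passed the test for 48 of the 59 genes in p53R172H, 42 in p53Y202C, and 51 in p53Y217C, where 58%, 68%, and 54.8% of all genes were called. Mean Trp53 levels also differed between the male and female lines. They were 2287 and 1956 CPM in p53R172H, 2324 and 593 CPM in p53Y202C, and 1215 and 3709 CPM in p53Y217C. The part of Trp53 level in the interactions was not tested. In p53R172H 9 genes were higher in males and lower in females than p53 KO, among them Sema3d and Sema4d, and 7 the other way, among them Slit3, Nrp2, Sema6a, and Sema6d. In p53Y202C these counts were 5 and 8, with Epha2 and Slit1 among the first and Nrp1 and Plxna2 among the second. In p53Y217C they were 10 and 5, with Slit3, Nrp2, Sema5b, Sema6a, and Sema6d among the first and Sema3a and Sema3e among the second. Of all genes, 5.12%, 12.2%, and 5.91% were higher in males and lower in females and 6.79%, 10.9%, and 6.33% the other way in p53R172H, p53Y202C, and p53Y217C, against 15.3%, 8.47%, and 16.9% and 11.9%, 13.6%, and 8.47% of the 59 genes. Genes called higher in both sexes numbered 9, 11, and 6, and those called lower in both 7, 16, and 14, in p53R172H, p53Y202C, and p53Y217C. These are 15.3%, 18.6%, and 10.2% higher and 11.9%, 27.1%, and 23.7% lower, against 9.81%, 14.8%, and 15.1% and 9.46%, 14.7%, and 16.3% of all genes.

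The largest interaction in p53R172H was that of Slit3, -5.93 ± 0.15 (adjusted p = 1.51e-19), followed by Plxnc1 (-4.33 ± 0.50, adjusted p = 7.84e-08) and Sema3d (3.79 ± 0.18, adjusted p = 1.59e-14). In p53Y202C they were Slit1 (5.01 ± 0.60, adjusted p = 7.62e-08), Unc5c (-3.60 ± 0.12, adjusted p = 5.71e-18), and Plxna2 (-3.50 ± 0.11, adjusted p = 1.54e-18). In p53Y217C they were Sema5b (8.39 ± 0.41, adjusted p = 1.71e-14), Plxnb3 (7.76 ± 2.63, adjusted p = 0.0152), and Slit1 (6.29 ± 0.55, adjusted p = 7.18e-10). The Plxnb3 interaction rests on low female counts and was 7.11 without female p53 KO replicate 1 (adjusted p = 0.139) and 8.66 without female p53Y217C replicate 1. The sign of the Slit3 interaction differed between mutations, at -5.93 ± 0.15 in p53R172H, -1.89 ± 0.15 in p53Y202C, and 4.04 ± 0.16 in p53Y217C. Nrp2 went from -3.28 ± 0.08 in p53R172H to 2.55 ± 0.08 in p53Y217C, and in p53Y202C its interaction was 0.03 ± 0.08 (adjusted p = 0.772). In p53R172H 7 of the 8 ephrins had a positive interaction past the test and 0 a negative one. Of all genes, 58% passed that test in either direction, and their shares by direction were not computed.

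**Figure D5:**
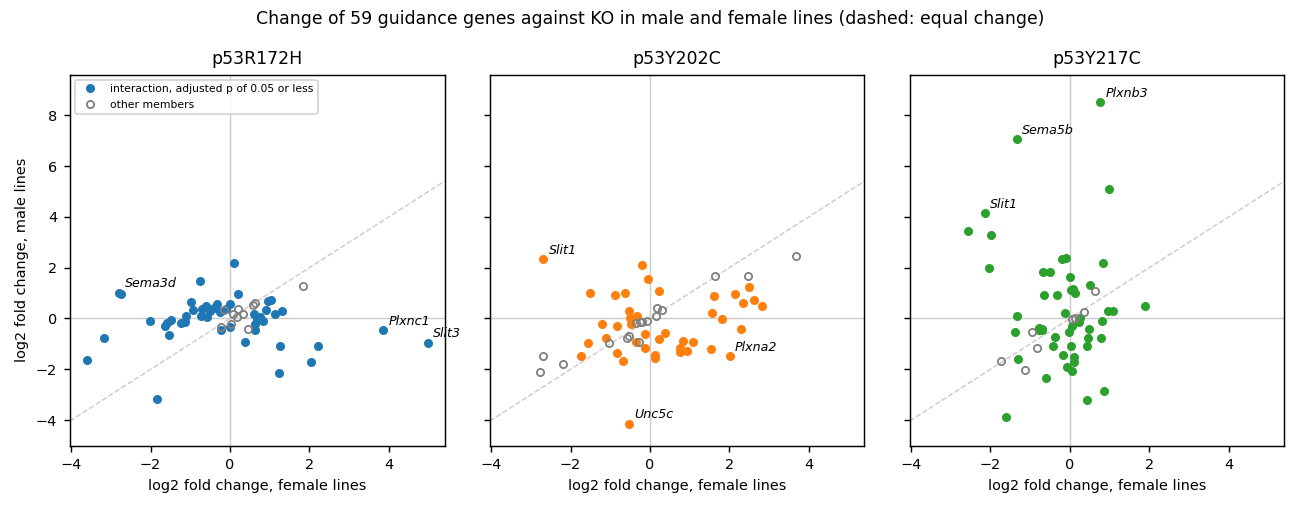
Log2 fold change against p53 KO in male lines (vertical axis) and female lines (horizontal axis) for the 59 genes, in p53R172H, p53Y202C, and p53Y217C. Filled points passed the test of the interaction, open points did not, and the dashed line marks equal change. Slit3 and Plxnc1 lie far to the right in p53R172H, Unc5c lies low in p53Y202C, and Sema5b and Plxnb3 lie at the top in p53Y217C.

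Further guidance genes were counted from lists of other ligands and co-receptors (16 of 24 measured) and of intracellular effectors (53 of 54 measured). In male p53R172H, p53Y202C, and p53Y217C the other ligands and co-receptors higher and lower numbered 4 and 5, 7 and 6, and 4 and 9, and in females 7 and 5, 5 and 9, and 6 and 4. Of the effectors, 17 and 15, 24 and 22, and 26 and 21 were higher and lower in males, and 13 and 27, 15 and 21, and 13 and 24 in females. The shares of effectors higher and lower were 32.1% and 28.3%, 45.3% and 41.5%, and 49.1% and 39.6% in males and 24.5% and 50.9%, 28.3% and 39.6%, and 24.5% and 45.3% in females. For the other ligands and co-receptors they were 25% and 31.2%, 43.8% and 37.5%, and 25% and 56.2% in males and 43.8% and 31.2%, 31.2% and 56.2%, and 37.5% and 25% in females. The shares of all genes, in the same order, were 20.2% and 20.5%, 37.6% and 35.4%, and 34.9% and 35.6% in males and 34.4% and 35.3%, 34.3% and 34.3%, and 28% and 28.7% in females. Flrt2, which encodes a ligand of Unc5 receptors, had the largest fall among the ligands, in male p53Y217C (-2.91 ± 0.12, adjusted p = 1.35e-16), and Dscam, a netrin receptor, the largest rise, in female p53R172H (3.27 ± 0.28, adjusted p = 3.47e-10). Among the effectors, the collapsin response mediator genes held both extremes. Dpysl5 rose in male p53Y217C (7.39 ± 0.39, adjusted p = 3.03e-14), and Dpysl4 had the largest fall, in female p53Y217C (-4.33 ± 0.38, adjusted p = 1.17e-09). Outside male p53Y217C the line means of Dpysl5 were 0.238 CPM or less, and outside female p53R172H those of Dscam were 0.531 CPM or less. The rises of Dpysl5 and Dscam in those lines are thus not independent of the filter of more than 1 CPM. In male p53Y217C, the line in which Sema5b and Plxnb3 were highest, markers of the listed cell types were set against male p53 KO. The summed astrocyte markers were at 561 to 607 CPM against 387 to 410 CPM, and of the 10 genes 8 had a higher and 2 a lower mean. The pericyte and fibroblast sum was 21400 to 22000 against 29300 to 34100 CPM, the endothelial 36.2 to 40 against 209 to 231, the microglial 16.7 to 18.3 against 64.4 to 80.7, and the oligodendrocyte lineage 89.3 to 95.9 against 283 to 305. The neuron sum was 128 to 138 against 122 to 129 CPM from members that went both ways, with Map2 at 116 and 13.2 CPM, Tubb3 at 15.7 and 88, and Stmn2 at 1.91 and 24. The means higher and lower numbered 3 and 7 for pericyte and fibroblast, 0 and 4 for endothelial, and 1 and 1 for microglial markers. For the oligodendrocyte lineage they numbered 2 and 3, and for neuronal markers 1 and 3. The part of these markers in the changes of male p53Y217C was not tested.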

How the data were processed

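PolyA RNA from 24 libraries was sequenced, 3 for each of 8 lines. The authors deposited read counts per gene, made per the labels and the study's methods with STAR 2.5.1a, the Ensembl release 76 mouse assembly, and featureCounts. Strand handling is not given in the sources used here. Samples were grouped by the labels' sex and genotype. Counts were scaled with TMM and tested with edgeR 4.0.16 (R 4.3.3) by its quasi-likelihood test with 1 mean per line over all 24 libraries and Benjamini-Hochberg adjustment over all 14427 genes at 0.05, after a filter of more than 1 CPM in at least 2 libraries. CPM and RPKM were computed from TMM-scaled libraries and GENCODE M21 exon lengths. Depth was 52787288 to 136503809 counts, and the floor covers counting error only.

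The genes, lists, and tests were chosen with earlier results of these data known. Genes named in a comparison were the 3 with the largest rise and the 3 with the largest fall past the threshold, each line with the higher level holding 10 counts or more per library, the 3 largest interactions by the same rule, and the highest gene of each family per kilobase. Other named genes were chosen after their values were seen. Alternatives were DESeq2 1.42.0, its size factors, limma 3.58.1 voom with quality weights, other filters and thresholds, fits to the compared lines alone, a replicate block, and each library left out.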

Additional observations from a re-analysis of the deposited data

Results flagged for a closer look

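The change against p53 KO differed between the male and female cultures for 48 of the 59 guidance genes in p53R172H, 42 in p53Y202C, and 51 in p53Y217C, by edgeR's test of the interaction (male minus female log2 fold change). Of all genes, 58%, 68%, and 54.8% passed this test, so the share in p53Y202C, 71.2%, was near that of all genes. In p53R172H the largest were Slit3 at -5.93, Plxnc1 at -4.33, and Sema3d at 3.79. In p53Y202C they were Slit1 at 5.01, Unc5c at -3.60, and Plxna2 at -3.50, and in p53Y217C Sema5b at 8.39, Plxnb3 at 7.76, and Slit1 at 6.29. Of these, the Plxnb3 value was lost without female p53 KO replicate 1 (7.11, adjusted p = 0.139). Each sex is 1 pooled culture with its own infections, so sex, culture, and infection cannot be told apart.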

How the results depend on the processing

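Of 767 values tested over 13 comparisons, 602 passed the test. With DESeq2 size factors 598 of these calls were kept, with limma voom and quality weights 590, and with DESeq2's Wald test 593 of 597, with 13 Plxnb3 values left without an adjusted p. Both filterByExpr and no filter kept all 602, an adjusted p of 0.01 kept 541, an absolute log2 fold change above 0.5 kept 484, and a filter above 5 CPM in at least 3 libraries kept 508 of 514. Fits to the compared lines alone kept 554 of 560. With the absolute log2 fold change above 0.5, genes higher in male p53R172H numbered 12 in place of 22, and genes differing between male and female p53 KO 21 in place of 38. The summed neuropilin level of male p53Y217C was 37.6 RPKM with DESeq2 size factors and 37.4 RPKM with TMM, a shift larger than its SD of 0.0989.

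Leaving out 1 library at a time ended 67 calls, 59 of them with an absolute log2 fold change of 1 or less, and moved 15 kept calls by more than 1.5-fold. Those above 1 were Plxnb3 in both p53Y202C lines and in the p53Y217C interaction, Unc5a in female p53Y217C, in the p53R172H interaction, and between male and female p53R172H, Sema5b in the p53R172H interaction, and Plxnc1 between male and female p53 KO. Plxnb3 in male p53Y202C alone turned direction, to -0.05 without replicate 1.

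A replicate block kept 595 calls and lost 7. Genes with an interaction then numbered 45 in place of 48 in p53R172H, 41 in place of 42 in p53Y202C, and 51 as before in p53Y217C. Deviations of like-numbered libraries correlated by -0.0116 on average, and 5 of 24 libraries correlated best with their own number, so the numbers were not taken to pair the libraries. Plxnb3 and Sema5b were at 3 counts or fewer in 4 and 2 libraries, and depth limits their values there.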
